A study of Homo sapiens with 6 samples.

Results

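Negative feedback inhibitors of MAP kinase signalling were followed in MIA PaCa-2 cells, a line established from a human pancreatic carcinoma. The set was chosen by gene symbol, with earlier results of these data known. It holds 10 of the 35993 genes in the deposited table: the dual-specificity phosphatases DUSP1, DUSP4, DUSP5, DUSP6, DUSP8 and DUSP10, the Sprouty genes SPRY2 and SPRY4, and the Spred genes SPRED1 and SPRED2. RNA was sequenced from cells exposed for 48 h to 4 µM rhCYGB, a His-tagged recombinant human cytoglobin produced in E. coli, and from untreated cells, with 3 libraries in each group. Both groups were kept in DMEM with 1% FBS, no vehicle is described for the untreated cells, and the labels do not say whether the libraries of a group came from separate cultures, so that p-values measure the spread between these libraries. The comparison asks which of these inhibitor genes differ in RNA level between treated and untreated cells.

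MAP kinases (ERK, JNK and p38) are switched on when both a threonine and a tyrosine of their activation loop are phosphorylated, and MAP kinase phosphatases of the DUSP family remove both phosphates. Several of these phosphatases, and the Sprouty and Spred proteins, which restrain signalling between receptor tyrosine kinases, RAS and RAF, are encoded by genes that ERK signalling itself induces, so the pathway limits its own output. RNA levels alone do not measure the phosphorylation of any kinase.

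Of the 10 genes, 9 had enough counts to be tested, and DUSP10 had 0 counts in every library. With rhCYGB, 7 of the 9 rose (DUSP1, DUSP4, DUSP5, DUSP8, SPRY2, SPRY4 and SPRED1) and 2 fell (DUSP6 and SPRED2) by edgeR's quasi-likelihood test at a Benjamini-Hochberg adjusted p under 0.05. The response was wide across so related a set: DUSP5 rose 10.1-fold while DUSP6 fell by 0.33 on the log2 scale. Among the 14728 genes tested, 39.0% were higher and 38.6% lower by the same criterion, so that passing it is common in these libraries. With a further limit of 2-fold, 5 members were higher (DUSP1, DUSP4, DUSP5, DUSP8 and SPRY2) and 0 were lower, where 12.4% of all tested genes were higher and 14.7% lower; DESeq2 also found 0 lower. The median log2 fold change was 1.24 over the 9 tested members and -0.0046 over all tested genes. As the members were chosen with earlier results of these data known, these contrasts describe the set and do not test it. By limma the members' median was 0.89 on log2(FPKM + 0.1) and 0.29 on log2(FPKM + 1), a scale that understates the change of low genes. Both medians are the values of DUSP4, the tested member with the lowest level. In all 9 the CPM values (counts scaled to the TMM-adjusted library size) of both groups did not overlap, as was true of 39.8% of tested genes in the upward and 39.7% in the downward direction.

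**Figure D1:**
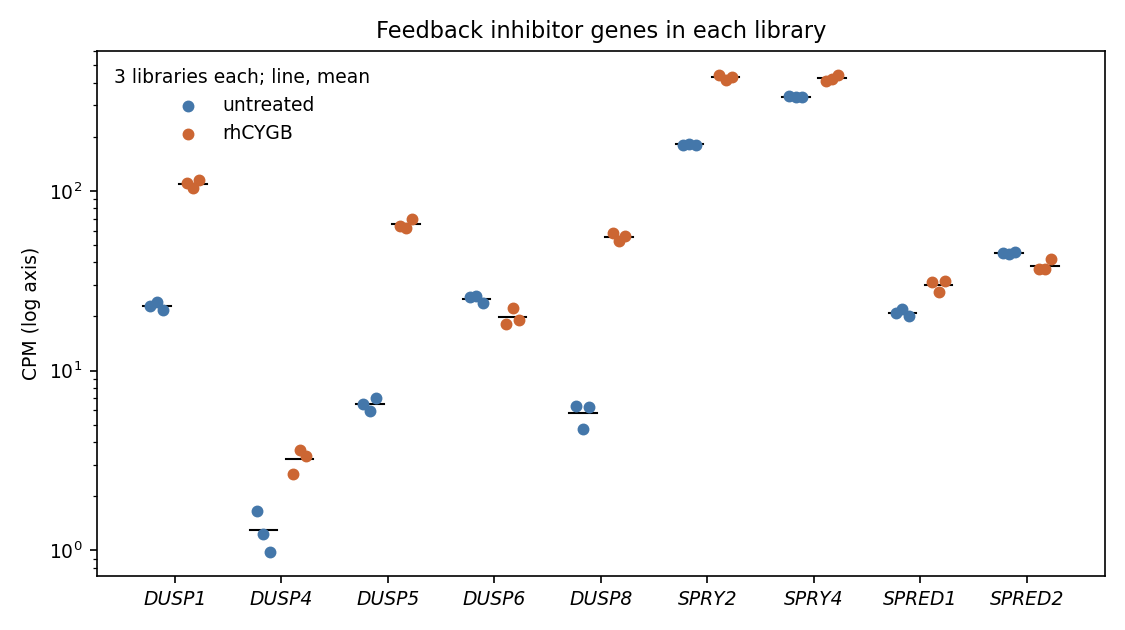
CPM on a log axis of the 9 tested genes in each of the 3 untreated and 3 rhCYGB libraries, with a line at each group mean. No gene has overlapping groups; the gaps are widest for DUSP5, DUSP8 and DUSP1, and DUSP6 and SPRED2 are the genes with the rhCYGB points below.

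The libraries held 34838399 to 42271299 counts, and their TMM factors ran from 0.932 to 1.06, with all untreated libraries above all rhCYGB libraries. A floor of 3 counts corresponds to 0.0669 to 0.0902 CPM and covers counting error only. The square root of edgeR's common dispersion was 5.48%, a coefficient of variation within groups pooled over genes and without counting error. Single genes can vary more. No library was a copy of another. Of 7 markers listed for an epithelial carcinoma line, KRT8, KRT18, KRT19 and VIM were high, whereas EPCAM was at 0, CDH1 had 2 counts over all libraries and KRT7 was under 1 CPM in both groups. VIM encodes vimentin, which the study used as a marker of pancreatic stellate cells, so its level does not mark an epithelial identity. Of 12 markers of other cell types, 5 were at 0 in every library (PTPRC, PECAM1, PRSS1, CPA1 and INS). The summed level of the 12 was 181 to 190 CPM in untreated and 82.8 to 84.3 CPM in rhCYGB libraries, most of it COL1A2 and CD68. These moved in opposite directions: mean COL1A2 fell from 142 to 6.86 CPM, and mean CD68 rose from 36.0 to 71.4 CPM. The part of these shifts in the results was not tested. In bulk RNA, a change in the share of cells that express a gene cannot be told apart from a change in RNA per cell.

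DUSP1 and DUSP8 are introduced with the sequence upstream of their start sites, since of the 8 members with a promoter in the RefSeq table (DUSP4 and DUSP5 have no entry) they alone hold the cAMP response element (CRE), the 8-base site TGACGTCA to which CREB and ATF factors bind. DUSP6, which fell and whose promoter holds none of the motifs searched, is shown beside them. SPRY2, SPRY4 and SPRED1, which rose, hold none of the motifs either, and SPRED2, which holds other motifs named below, fell. Whether a motif goes with the direction of change was not tested. Each line gives the 250 bases before the RefSeq start, 5′ to 3′ on the strand of the gene, from the reference sequence of GRCh38.p14, with matches to a searched motif in capitals.
DUSP1, chr5:172771196-172771445, minus strand: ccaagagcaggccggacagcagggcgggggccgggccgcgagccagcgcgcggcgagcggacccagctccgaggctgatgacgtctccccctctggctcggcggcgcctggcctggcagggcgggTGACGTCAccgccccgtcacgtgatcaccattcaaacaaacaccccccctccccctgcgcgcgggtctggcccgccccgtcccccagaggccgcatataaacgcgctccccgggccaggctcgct
DUSP8, chr11:1572272-1572521, minus strand: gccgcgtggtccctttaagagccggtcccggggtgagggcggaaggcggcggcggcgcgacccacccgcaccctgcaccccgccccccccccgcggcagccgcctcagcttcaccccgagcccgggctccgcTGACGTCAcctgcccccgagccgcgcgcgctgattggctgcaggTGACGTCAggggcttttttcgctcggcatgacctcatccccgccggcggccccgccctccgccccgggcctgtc
DUSP6, chr12:89352502-89352751, minus strand: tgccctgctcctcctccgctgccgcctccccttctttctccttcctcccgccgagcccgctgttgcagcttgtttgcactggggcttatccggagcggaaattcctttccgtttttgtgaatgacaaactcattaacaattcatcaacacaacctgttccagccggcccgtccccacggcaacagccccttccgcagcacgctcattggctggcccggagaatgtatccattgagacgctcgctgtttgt

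The CRE begins 125 bases before the start in DUSP1, and 118 and 74 bases before it in DUSP8. This motif is found in 1.85% of the 35116 promoters of the table, each searched on both strands from 250 bases before to 50 bases after the start. Of the other motifs, the AP-1 site TGANTCA (in 7.71% of promoters) and the ATF4 composite site TGATGNAA (3.62%) occurred in 1 member, at the second of the SPRED2 promoters, and the ETS site CCGGAAGT (4.14%) and the CArG box (1.29%) occurred in none. Over all 417 tested genes with a CRE in a promoter, 14.9% were at least 2-fold higher and 10.1% at least 2-fold lower, against 11.8% and 14.5% of the 11072 tested genes with any promoter in the table. For the ATF4 composite site 18.8% were at least 2-fold higher and 13.7% at least 2-fold lower, and for AP-1 15.0% and 13.5%. For the CArG box the shares were 14.9% higher and 16.1% lower, and for ETS 8.5% and 10.1%. A match is a run of letters, and binding was not measured here.

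Inducible nuclear phosphatases rose with rhCYGB. DUSP1 (MKP-1), an early response phosphatase that acts on p38 and JNK as well as ERK, was measured at 23.0, 24.1 and 21.6 CPM in untreated libraries 1, 2 and 3 and at 111, 103 and 115 CPM in rhCYGB libraries 1, 2 and 3. Its lowest treated library was thus over 4 times its highest untreated one. Group means were 22.9 ± 1.25 and 109.8 ± 6.06 CPM (SD, n = 3). The log2 fold change was 2.26 ± 0.056 (SE; edgeR adjusted p = 2.31e-14) and ranked 335th among the rises of all tested genes.

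DUSP5, a nuclear phosphatase selective for ERK, gave the largest rise of the set. It was at 6.5, 5.96 and 7.04 CPM in the untreated libraries and at 63.9, 62.6 and 69.9 CPM in the rhCYGB libraries. All treated libraries lay close together and well clear of the untreated ones. The log2 fold change was 3.33 ± 0.072 (SE; edgeR adjusted p = 5.65e-15), the 112th largest rise of all tested genes. The transcribed pseudogene DUSP5P1, listed apart from it, had 104, 152 and 87 counts in untreated and 47, 37 and 63 in rhCYGB libraries, far under the 2081 to 2575 counts of DUSP5 in treated cells.

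DUSP4 (MKP-2), a nuclear relative of DUSP1, was scarce. It was counted 62, 55 and 40 times in the untreated and 99, 121 and 124 times in the rhCYGB libraries, or 1.66, 1.23 and 0.981 CPM against 2.66, 3.64 and 3.36 CPM. The groups did not overlap, but the spread within each was the widest of the set relative to its mean. Its log2 fold change was 1.32 ± 0.226 (SE; edgeR adjusted p = 7.46e-05), and on the deposited FPKM values limma gave 0.29 on log2(FPKM + 1) and 0.89 on log2(FPKM + 0.1), both under 2-fold; a pseudocount shrinks the change of a gene at so low a level.

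DUSP8, a phosphatase that prefers JNK and p38, stood with DUSP5 in the size of its rise. The untreated libraries gave 6.39, 4.75 and 6.25 CPM and the rhCYGB libraries 58.5, 52.3 and 56.4 CPM. Each treated library was at least 8 times every untreated one. The fold change was 9.67, or 3.27 ± 0.089 (SE) on the log2 scale, with an edgeR adjusted p of 5.91e-14. The listed pseudogene DUSP8P5 had 69, 86 and 100 counts in untreated and 27, 38 and 55 in rhCYGB libraries, while DUSP8 itself went from between 213 and 255 to between 1740 and 2173 counts. How the counting split reads between genes and pseudogenes of like sequence is not given in the sources used here.

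DUSP10 (MKP-5), which also acts on JNK and p38, had 0 counts for each of its 3 listed transcripts in all 6 libraries. Its level is therefore below the floor of 3 counts per library in both groups, and no fold change is given. An exact 0 over so many reads states what the table lists and not that the RNA was absent.

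DUSP6 (MKP-3), a cytoplasmic phosphatase that is selective for ERK and often read as a gauge of ERK output, went the other way. It measured 25.6, 26.0 and 23.6 CPM in untreated and 18.3, 22.3 and 19.2 CPM in rhCYGB libraries. The highest treated library lay just under the lowest untreated one. The mean fell from 25.0 ± 1.24 to 19.9 ± 2.1 CPM (SD, n = 3), and the log2 fold change was -0.33 ± 0.075 (SE; edgeR adjusted p = 0.000885).

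Of the adaptor inhibitors, SPRY2 rose and SPRY4 rose less. SPRY2, which is phosphorylated on receptor activation and blocks the passage of the signal to RAS and RAF, was at 181, 183 and 181 CPM in untreated and 443, 414 and 428 CPM in rhCYGB libraries. Its untreated values were the tightest of the set. The log2 fold change was 1.24 ± 0.037 (SE; edgeR adjusted p = 1.64e-13).

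SPRY4, a second Sprouty protein that acts at the same level, was the most abundant of the set by CPM in untreated cells at 338, 332 and 335 CPM, and was at 407, 417 and 444 CPM in rhCYGB libraries. The log2 fold change was 0.33 ± 0.038 (SE; edgeR adjusted p = 1.08e-06). Scaling by total counts alone gave 0.17 (adjusted p = 0.00105), as did limma on both FPKM scales, and upper-quartile factors gave 0.19. The noncoding SPRY4-IT1 is listed inside SPRY4 and had at most 125 counts in untreated and 62 in rhCYGB libraries, beside 12606 to 16357 for SPRY4.

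The Spred genes moved in opposite directions. SPRED1, which brings the RAS inactivator NF1 to the membrane, was at 20.9, 22.2 and 20.1 CPM in untreated and 31.1, 27.5 and 31.4 CPM in rhCYGB libraries. Its log2 fold change was 0.51 ± 0.066 (SE; edgeR adjusted p = 4.10e-06), and 0.26 by limma on log2(FPKM + 1). SPRED2, its close relative, was at 45.4, 44.4 and 45.8 CPM in untreated and 36.7, 36.6 and 41.6 CPM in rhCYGB libraries. Its log2 fold change was -0.24 ± 0.057 (SE; edgeR adjusted p = 0.00139), and -0.40 when libraries were scaled by total counts alone. For both genes every treated library lay on one side of every untreated library.

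Ratios of counts within a library do not depend on how libraries were scaled, and they show how unevenly the set moved. There were 0.535, 0.550 and 0.540 SPRY2 counts per SPRY4 count in untreated libraries and 1.09, 0.992 and 0.965 in rhCYGB libraries. For SPRED1 per SPRED2 the ratio was 0.460, 0.499 and 0.439 in untreated and 0.846, 0.752 and 0.755 in rhCYGB libraries. DUSP5 per DUSP6 went from 0.254, 0.230 and 0.298 to 3.50, 2.81 and 3.63, so that DUSP6 counts outnumbered DUSP5 counts in every untreated library and the reverse held in every treated one. DUSP1 per DUSP6 was 0.9, 0.929 and 0.914 in untreated and 6.08, 4.64 and 5.99 in rhCYGB libraries. None of these ratios overlapped between groups, and for each the exact two-sided permutation p was 0.1, the smallest that 3 against 3 libraries allow. Where a gene that rose is set over a gene that fell, this follows from the CPM values above and adds no support. The share of other gene pairs whose ratios do not overlap was not computed.

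Levels of different genes were compared by FPKM as deposited, a unit that corrects for the length of the transcript. In untreated cells the order of mean FPKM was SPRY2 (72.5), SPRY4 (63.6), DUSP1 (10.6), SPRED2 (9.36), DUSP6 (6.44), SPRED1 (2.70), DUSP5 (2.44), DUSP8 (1.12) and DUSP4 (0.214), with DUSP10 at 0. SPRED1 and DUSP5 were the only neighbours whose libraries overlapped. In rhCYGB cells the order was SPRY2 (147), SPRY4 (71.6), DUSP1 (45.4), DUSP5 (22), DUSP8 (9.62), SPRED2 (7.20), DUSP6 (4.56), SPRED1 (3.44) and DUSP4 (0.480), and no neighbours overlapped. DUSP5 and DUSP8 thus went from places under SPRED2, DUSP6 and SPRED1 to places above them, while the first 3 places stayed with SPRY2, SPRY4 and DUSP1.

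Summed over the set, FPKM was 168.7 to 169.3 in untreated and 294 to 322 in rhCYGB libraries. The phosphatases made up 20.8 ± 0.478 FPKM of it in untreated and 82.1 ± 5.44 FPKM in rhCYGB libraries (mean ± SD, n = 3), the Sprouty genes 136 ± 0.642 and 219 ± 11.3 FPKM, and the Spred genes 12.1 ± 0.102 and 10.6 ± 0.876 FPKM. These FPKM values carry no TMM factors, which were lower in all rhCYGB libraries. In mean CPM, SPRED1 rose from 21.0 to 30.0 and SPRED2 fell from 45.2 to 38.3. The lower Spred sum in rhCYGB libraries thus depends on the FPKM scale. As a share of the FPKM of the whole set, SPRY4 went from between 37.3% and 37.9% in untreated to between 21.5% and 24.0% in rhCYGB libraries. DUSP1 went from between 5.96% and 6.59% to between 14.2% and 15.2%, and DUSP6 from between 3.62% and 3.94% to between 1.31% and 1.70%.

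**Figure D2:**
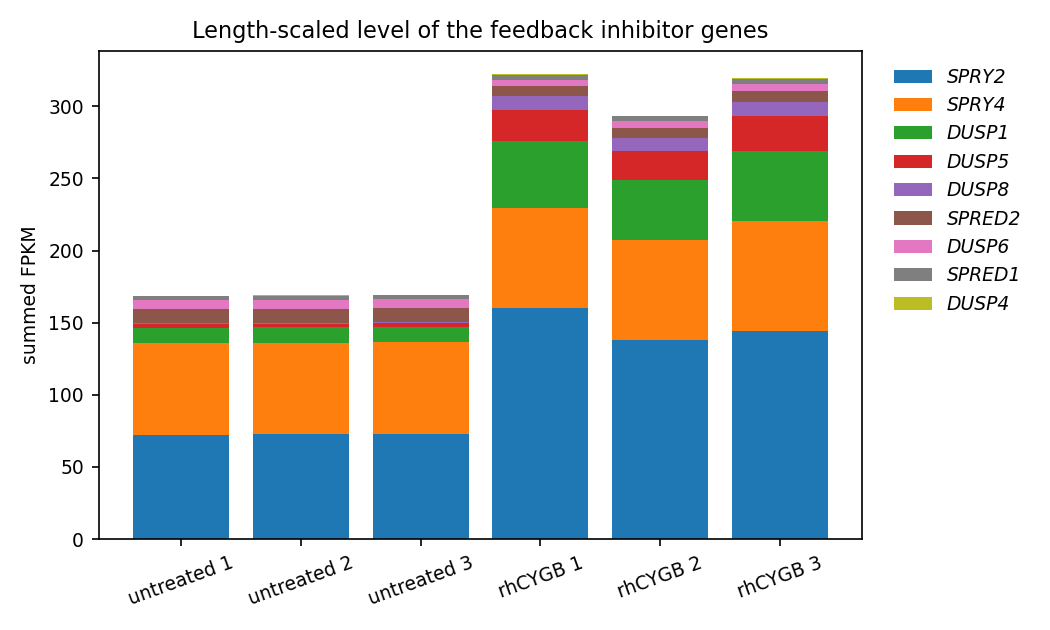
Deposited FPKM of each gene, stacked, in each of the 3 untreated and 3 rhCYGB libraries. The stacks reach about 169 in untreated and 294 to 322 in rhCYGB libraries. The SPRY2, DUSP1, DUSP5 and DUSP8 segments are taller in the treated libraries, as are, by less, those of SPRY4, SPRED1 and DUSP4. The SPRED2 and DUSP6 segments are shorter, and DUSP10 is at 0.

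Counts per transcript, which the assembler estimates where transcripts share sequence, were examined for the members with several listed transcripts. SPRY2 transcript variant 1 took 85.4%, 85.8% and 83.3% of the gene's counts in untreated libraries and 91.9%, 61.0% and 39.1% in rhCYGB libraries 1, 2 and 3. Variant 3 took 9.77%, 10.2% and 12.9% in untreated and 5.01%, 36.6% and 58.6% in rhCYGB libraries. The treated libraries thus disagreed among themselves and lay on both sides of the untreated ones, while the gene total was tight. A difference in SPRY2 transcript use between groups was not tested. SPRY4 variant 2 held 81.2% to 91.1% of the gene's counts in all libraries. DUSP6 variant 1 held 97.1% to 100% and DUSP4 variant 1 held 92.7% to 100%. SPRED2 variant 2, which starts downstream of variant 1, took 0, 10.1% and 2.09% in untreated and 7.33%, 33.3% and 15.2% in rhCYGB libraries, with overlapping groups.

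**Figure D3:**
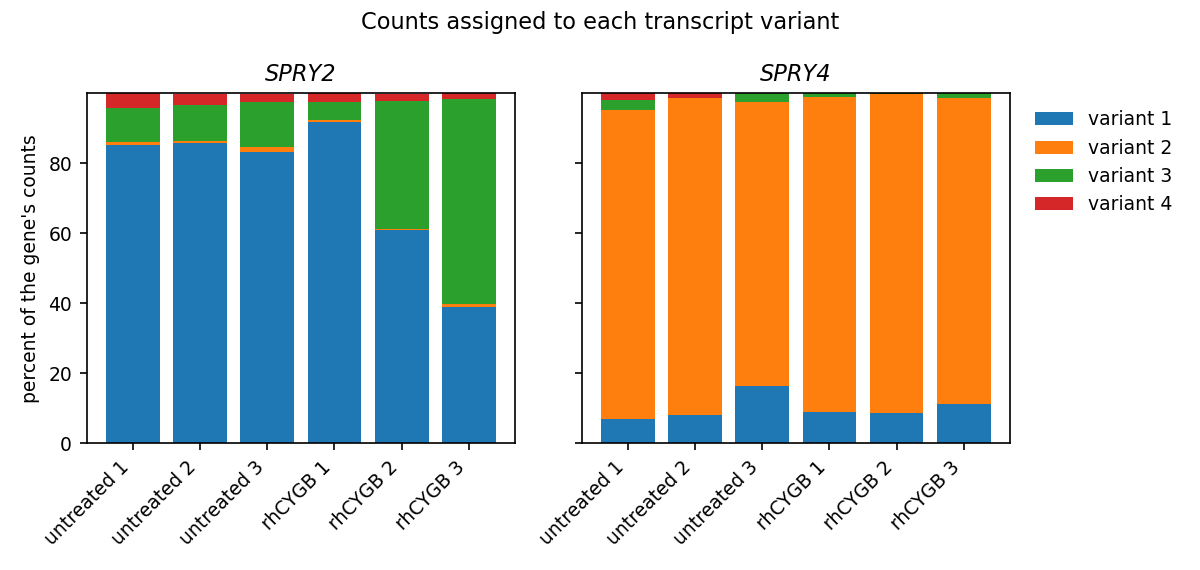
Percent of the counts of SPRY2 and of SPRY4 assigned to each of their 4 listed transcript variants in each library. In SPRY2 the share of variant 1 runs from 39.1% to 91.9% over the rhCYGB libraries, and in SPRY4 variant 2 leads in all 6.

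In the transcript table, whose genome build is not named, the members lie on 9 chromosomes. Positions there do not match the GRCh38.p14 positions of the promoters above and cannot be set against them. DUSP1 is at 5:172195099-172198198 and SPRY4 at 5:141690000-141704586, and the other members are on separate chromosomes, with DUSP5 at 10:112257665-112271291, DUSP6 at 12:89741012-89746278, DUSP8 at 11:1575281-1593501, DUSP10 at 1:221874762-221915518, SPRY2 at 13:80910111-80915261, SPRED1 at 15:38545037-38649450 and SPRED2 at 2:65537985-65659733. The spans run from 3100 bases for DUSP1 to 121749 for SPRED2.

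The 4 MAP kinase phosphatases outside the set were all tested, and 3 of them rose. DUSP7, a cytoplasmic ERK phosphatase in the same subfamily as DUSP6, was at 82.5, 78.6 and 69.5 CPM in untreated and 301, 283 and 314 CPM in rhCYGB libraries, with a log2 fold change of 1.96 ± 0.058 (SE; edgeR adjusted p = 1.40e-13). DUSP9, the remaining member of that subfamily, was at 2.86 ± 0.450 CPM in untreated and 1.85 ± 0.217 CPM in rhCYGB libraries (mean ± SD, n = 3). Its log2 fold change of -0.62 had an edgeR adjusted p of 0.00902, which became 0.0556 without untreated replicate 3. DUSP2, a nuclear phosphatase, went from 6.65 ± 1.63 to 14.5 ± 0.396 CPM with a log2 fold change of 1.12, which was 0.95 without untreated replicate 3 and 0.96 with total counts. DUSP16, which acts on JNK and p38, had a log2 fold change of 0.34 (edgeR adjusted p = 4.54e-05), and 0.17 with total counts.

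By subcellular class, the nuclear inducible phosphatases DUSP1, DUSP2, DUSP4 and DUSP5 were all higher with rhCYGB, where 39.0% of all tested genes were higher. DUSP2 and DUSP4 had low levels, and both were under 2-fold in either limma setting. The classes were not tested as sets. The cytoplasmic ERK phosphatases were split, with DUSP7 higher and DUSP6 and DUSP9 lower. Of the phosphatases that prefer JNK and p38, DUSP8 and DUSP16 were higher and DUSP10 was at 0.

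SPRY1, the third Sprouty gene with appreciable counts, fell. It was counted 1539, 1870 and 1736 times in untreated and 334, 316 and 387 times in rhCYGB libraries, or 41.9 ± 0.641 against 9.66 ± 0.767 CPM (mean ± SD, n = 3). The log2 fold change was -2.11 ± 0.066 (SE; edgeR adjusted p = 2.76e-13), so that within the Sprouty family SPRY1 was lower while SPRY2 and SPRY4 were higher. SPRY3, with 12 to 31 counts per library, and SPRED3 did not pass, with log2 fold changes of -0.23 ± 0.397 and -0.03 ± 0.122 (SE) and edgeR adjusted p of 0.605 and 0.856. The sign of the SPRY3 value turned without untreated replicate 1 (0.03) and without rhCYGB replicate 3 (0.02), and that of SPRED3 turned without rhCYGB replicate 1 (0.03).

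**Figure D4:**
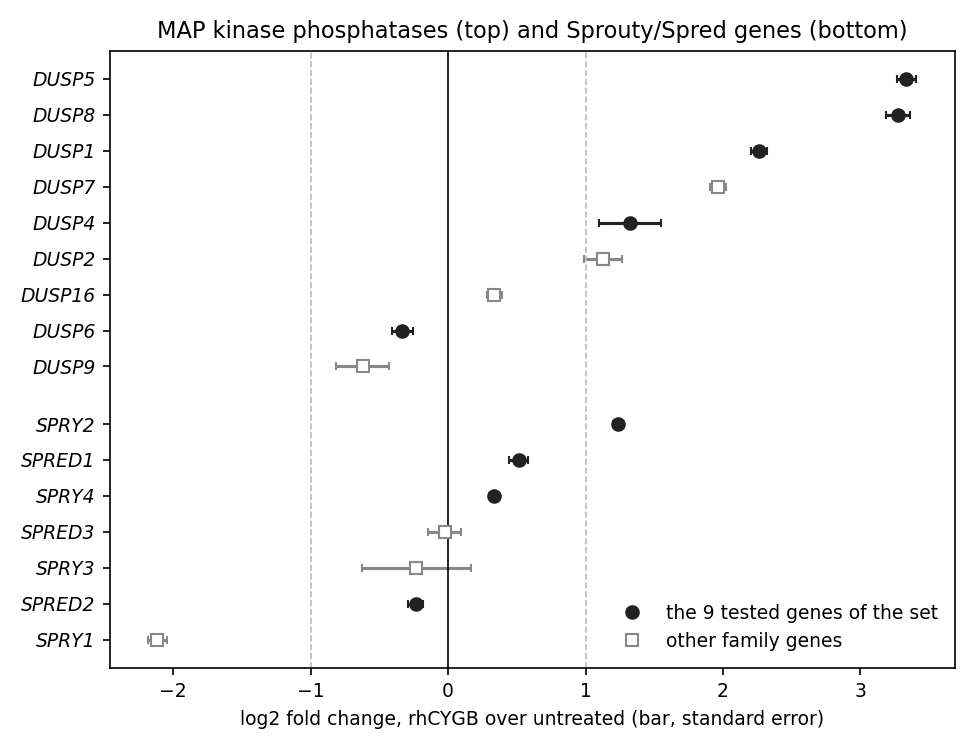
Log2 fold change, rhCYGB over untreated, with its standard error for the MAP kinase phosphatases (top) and the Sprouty and Spred genes (bottom); filled circles are the 9 tested members and open squares other family genes. Dashed lines mark 2-fold; DUSP5 at 3.33 and SPRY1 at -2.11 are the extremes.

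The pathway around these inhibitors was read from lists that hold 93 further genes, of which 85 were tested. At an adjusted p under 0.05, 48 were higher and 26 lower, with 19 and 8 past 2-fold and a median log2 fold change of 0.34. For these counts and those of each list below, the shares of all tested genes were 39.0% higher and 38.6% lower. Past 2-fold the shares were 12.4% and 14.7%. No list was tested as a set. The 10 tested atypical dual-specificity phosphatases, small relatives without a kinase-binding domain, included 6 higher and 3 lower. DUSP15 gave the largest rise there, from 1.21 ± 0.413 to 19.3 ± 1.66 CPM, with a log2 fold change of 4.00 ± 0.165 (SE; edgeR adjusted p = 6.15e-12), and DUSP14 followed at 0.67. DUSP19 was counted 27, 39 and 39 times in untreated and 0, 4 and 0 times in rhCYGB libraries and passed the test as lower. DUSP28 had a log2 fold change of -0.48 with an adjusted p of 0.0242, which rose to 0.111 without untreated replicate 2, 0.0585 without untreated replicate 3, 0.0858 without rhCYGB replicate 2 and 0.0598 by DESeq2. Of 4 tested phosphatases of other classes that act on MAP kinases, all 4 were higher by the edgeR test with TMM factors, and 3 with upper-quartile factors, total counts or either limma setting, with PPM1A at 1.00, on the 2-fold limit itself, and PPM1D, the p53-induced phosphatase WIP1, at 0.50 (0.27 by limma on log2(FPKM + 1)).

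Among 19 genes of the RAS-ERK cascade, 10 were higher and 6 lower, and 3 were at least 2-fold higher, with a median log2 fold change of 0.37. Of all tested genes, 39.0% were higher, 38.6% lower and 12.4% at least 2-fold higher. KSR1, a scaffold that gathers RAF, MEK and ERK, rose from 10.1 ± 1.38 to 25.4 ± 2.13 CPM (log2 fold change 1.34), and BRAF, a kinase that phosphorylates MEK, from 40.3 ± 0.985 to 95.9 ± 1.72 CPM (1.25). The largest falls were those of the adaptors SHC1, from 951 ± 38 to 565 ± 12.2 CPM (-0.75), and GRB2, from 118 ± 2.46 to 82.1 ± 2.92 CPM (-0.52), which link activated receptors to RAS.

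The JNK and p38 cascades had the opposite balance, with 4 of 17 tested genes higher, 11 lower and a median log2 fold change of -0.37. Beside the 3 of these genes at least 2-fold lower stand 14.7% of all tested genes. MAPK8, which encodes JNK1, was higher by 1.01, on the 2-fold limit, and MAP2K7, a kinase that activates JNK, by 0.78. Of the 3 genes at least 2-fold lower, those with the largest fitted falls, MAP2K6 and MAPK13, rested on few counts. The third, MAP3K5, a kinase upstream of JNK and p38 that is named here after its values were seen, was well counted and fell from between 585 and 660 to between 224 and 258 counts (log2 fold change -1.20, edgeR adjusted p = 3.21e-08). MAP2K6, an activator of p38, was counted 31, 27 and 15 times in untreated and 0, 8 and 6 times in rhCYGB libraries (edgeR adjusted p = 0.00585, and 0.288 by limma on log2(FPKM + 1)). MAPK13, a p38 kinase, was counted 17, 44 and 42 times against 8, 18 and 6 times, with overlapping CPM values. Its adjusted p of 0.0108 was lost, at between 0.0510 and 0.0582, without untreated replicate 2 or 3 or rhCYGB replicate 1 or 3, and at 0.0609 by limma on log2(FPKM + 1).

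Of 16 other genes that ERK signalling is known to induce, 12 were higher and 3 lower, 8 and 2 of them past 2-fold, and the median log2 fold change was 0.89. MYC, the growth-promoting transcription factor, rose from 357 ± 9.01 to 1654 ± 49.2 CPM (log2 fold change 2.21), and PHLDA1 from 386 ± 5.11 to 1710 ± 49.5 CPM (2.15). In the same list CCND1, which encodes cyclin D1, fell from 164 ± 0.863 to 60.5 ± 1.40 CPM (-1.44), and ETV1, an ETS factor, from 23.3 ± 1.98 to 8.86 ± 0.424 CPM (-1.40). The list, like the members, thus held genes moving in both directions.

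Of 12 other inhibitors of receptor and RAS signalling, 9 were higher and 1 lower, with a median of 0.69. ERRFI1 (MIG6), an inhibitor of the EGF receptor, rose from 850 ± 9.50 to 2763 ± 43.0 CPM (log2 fold change 1.70), and RASAL2, a RAS GTPase activator, rose by 1.42. PEBP1, the RAF kinase inhibitor protein, fell from 325 ± 4.32 to 115 ± 2.23 CPM (-1.5). Its 3 treated libraries lay between 113 and 117 CPM.

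**Figure D5:**
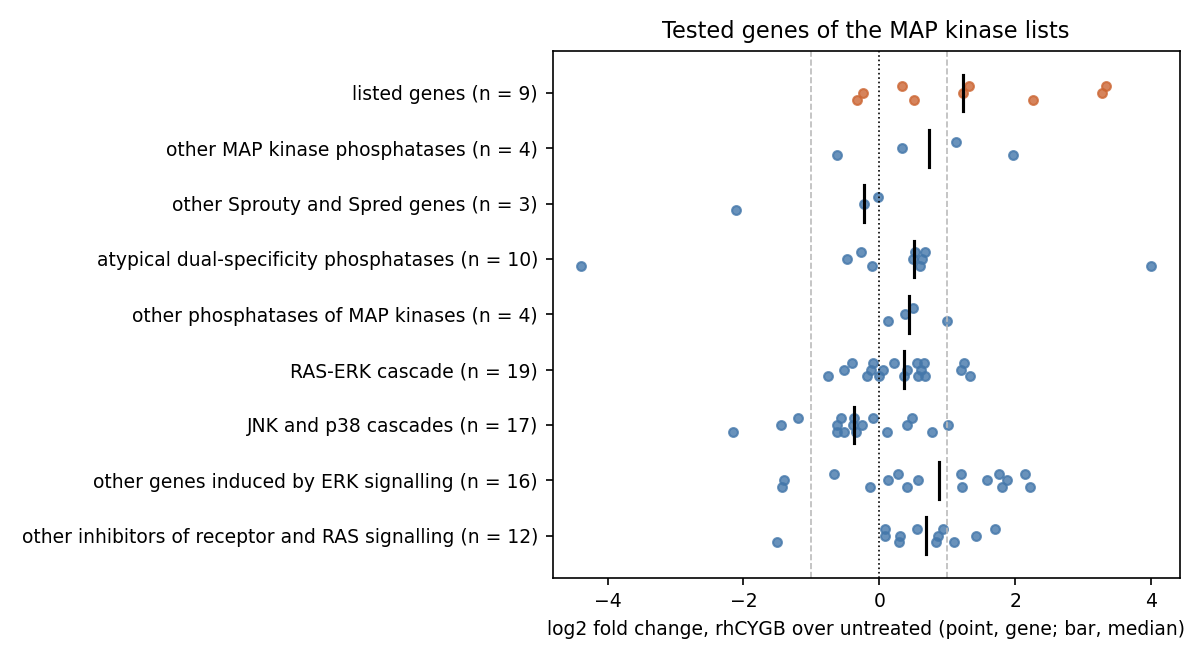
Log2 fold change, rhCYGB over untreated, of every tested member (orange) and of the tested genes of 8 further lists (blue), with bars at the medians and dashed lines at 2-fold. The median is 1.24 for the members and -0.37 for the JNK and p38 list. By limma on log2(FPKM + 1) the members' median is 0.29, which is the value of the scarce DUSP4. In that setting the median of the other ERK-induced genes is 0.71 and that of the other MAP kinase phosphatases 0.48. The leftmost point, DUSP19, rests on 0, 4 and 0 treated counts.

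The genes whose profile over the 6 libraries was most like that of DUSP5 or DUSP6 were found by the root mean square difference in log2 CPM after each gene was centred on its mean. For DUSP5 they were SGTB (0.0933), HSPA1A (0.102), a heat shock gene with a near-identical copy, HSPA1B, and DUSP8 (0.106), itself of the set. For DUSP6 they were ZNF75A (0.0392), ZNF341 (0.0408) and TMEM185AP1 (0.0430). With 3 libraries a group this likeness is mostly likeness of the fold change.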

How the data were processed

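RNA of 3 untreated and 3 rhCYGB-treated samples was prepared with a stranded mRNA kit. The authors checked reads with FastQC 0.11.7, mapped them with HISAT2 2.1.0 and assembled transcripts with StringTie 2.1.3b. The submitters' notes name the mouse build mm10 for these human cells; positions are printed as the transcript table gives them. The deposited tables give whole, unnormalized read counts for genes and transcripts. They also hold the authors' FPKM, deposited after division by transcript length and depth, and 6 TPM columns each, which were left out.

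Counts were filtered with filterByExpr and fitted with edgeR 4.0.16 (R 4.3.3; TMM factors, quasi-likelihood test, no block) over 14728 genes, and p-values were adjusted by the Benjamini-Hochberg method over all of them. Alternatives used DESeq2 1.42.0, and limma 3.58.1 on log2(FPKM + 1) and log2(FPKM + 0.1). Scripts were tested on simulated data. The members and lists were chosen with earlier results of these data known. All members and their family genes are named, with up to 2 rises and 2 falls of each other list that passed at an adjusted p under 0.05. Promoters are those of RefSeq, and amino acid sequences were not used here.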

Additional observations from a re-analysis of the deposited data

How the results depend on the processing

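The 9 tested members kept their direction and an adjusted p under 0.05 in each of the 16 alternatives (other scaling, filters, tools, transcript sums, a replicate block, and leaving out each library). Members called 2-fold higher numbered 5, or 4 with either limma setting, where DUSP4 was under 2-fold. Members called lower numbered 0 at 2-fold and 2 with the adjusted p alone. With limma on log2(FPKM + 1), 12 of the list genes were called higher and 4 lower, against 19 and 8. Leaving out each library in turn gave 5 and 0 members each time, 17 to 19 list genes higher and 7 to 8 lower. With the replicate block, 5 and 0 members and 19 and 8 list genes were called. Same-numbered libraries did not deviate together (r = -0.048, 0.0072 and 0.0055), so no pairing by number was seen. Such correlations cannot exclude that same-numbered libraries had a shared origin, which the labels do not state. Over all genes, the calls were 1833 higher and 2165 lower by the main test, 1395 and 2719 with total counts, 1448 and 2633 with upper-quartile factors, and 805 and 1172 with limma on log2(FPKM + 1). Total counts shifted the median log2 fold change of all genes by -0.17 and upper-quartile factors by -0.14. PPM1A and MAPK8, on the 2-fold limit, dropped under it in 6 and 8 alternatives. KSR1, BRAF and RASAL2 were under 2-fold with limma on log2(FPKM + 1), at 0.85, 0.97 and 0.99. DUSP10 had 0 counts, so a change in it was not detectable at this depth.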
